A study of Mus musculus with 24 samples.

Results

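The enzymes that break down amino acids other than the branched-chain ones were followed in isolated mouse hepatocytes as a set of 43 genes. They were taken by gene name from a table of 55421 annotated genes, and all 43 were present. The set holds 7 genes of aromatic amino acid breakdown, 6 of tryptophan, 4 of histidine, 9 of glycine and serine, 9 of sulfur amino acids, 3 of proline, 3 transaminases and 2 genes of lysine breakdown. Every member passed the filter on low counts and was among the 13583 genes tested.

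Hepatocytes came from 24 male mice in 4 groups of 6. Young mice were labelled 6 months old and C57BL/6N, and old mice 24 months old and C57BL/6J, so any comparison of old with young also compares substrains, and these cannot be told apart. Each age received normal diet (ND, a chow per the labels) or high-fat diet (HFD, 60% of energy from fat) for 9 weeks. The study's text gives other ages, names no substrain and describes the control diet as a defined low-fat one, and the labels were followed here. The groups are young ND (YND), young HFD (YHFD), old ND (OND) and old HFD (OHFD). Livers were perfused to free the hepatocytes, and poly(A) RNA was sequenced in 2 batches that the sample titles name. Each group had 3 mice in each batch, except OND with 2 mice in batch 1 and 4 in batch 2. Levels are given as counts per 1000000 counts (CPM) after scaling by the trimmed mean of M values (TMM). Differences are log2 fold changes with their standard errors (SE), and p-values come from edgeR's quasi-likelihood test and were adjusted by Benjamini-Hochberg over all genes tested. A gene is called changed at an adjusted p under 0.05.

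Totals ran from 9200332 to 22185069 counts per mouse. Albumin (Alb), the main secreted protein of hepatocytes, lay between 29008 and 128235 CPM, and 9 of the 10 hepatocyte markers listed were measured in all groups. Summed markers of macrophages, endothelial cells and stellate cells reached 2275 CPM in OND replicate 4, which also had the lowest Alb. The same sum was 1453 CPM in OHFD replicate 6, 1241 CPM in OND replicate 3 and 1112 CPM in OHFD replicate 4, against at most 665 CPM in the other mice. These 4 livers gave the smallest shares of all counts to the 43 members, at 1.17% in OND replicate 4, 1.25% in OHFD replicate 4, 1.55% in OND replicate 3 and 1.86% in OHFD replicate 6. The other mice ranged from 2.04% to 3.07%. The part of other cells in the differences below was not tested, and fewer hepatocytes in a sample and less RNA per hepatocyte cannot be told apart in bulk RNA.

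Liver is the main site of amino acid breakdown in the body, since hepatocytes hold complete routes for most amino acids that muscle cannot oxidise. Transaminases move the amino group to a keto acid, and the carbon skeletons are then cut into intermediates of glucose, ketone body or energy metabolism. Several of these routes also make other products: tryptophan breakdown leads toward nicotinamide nucleotides, methionine breakdown passes through the methyl donor S-adenosylmethionine, and cysteine breakdown yields taurine, which the liver joins to bile acids.

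Upstream sequences are shown for 4 members whose differences are described below, namely Csad, which had the largest difference of the set, Gldc and Hal, which were lower in OHFD than in YND hepatocytes, and Got1, which was higher. The letters were read from the 250 bases before a RefSeq start on GRCm38.p6, each on the gene's own strand. Capitals mark 3 short motifs on either strand: the letters CCAAT, the part of the cAMP response element written TGACG, and the TATA motif written TATAAA. A motif on the opposite strand appears as its reverse complement. Csad has another RefSeq start, within the gene, whose window (chr15:102189044-102189293) held none of the motifs searched and is not shown. For the outer start, the stretch is limited to the part of the window outside any annotated exon.
Csad, chr15:102205087-102205228, minus strand: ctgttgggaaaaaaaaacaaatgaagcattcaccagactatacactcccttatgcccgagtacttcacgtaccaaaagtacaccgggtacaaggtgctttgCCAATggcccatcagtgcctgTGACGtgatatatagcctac
Gldc, chr19:30175442-30175691, minus strand: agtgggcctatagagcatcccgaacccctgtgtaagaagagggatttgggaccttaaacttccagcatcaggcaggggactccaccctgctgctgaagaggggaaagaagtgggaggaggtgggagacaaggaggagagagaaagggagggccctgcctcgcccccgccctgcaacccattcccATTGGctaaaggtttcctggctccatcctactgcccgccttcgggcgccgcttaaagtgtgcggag
Hal, chr10:93488518-93488767, plus strand: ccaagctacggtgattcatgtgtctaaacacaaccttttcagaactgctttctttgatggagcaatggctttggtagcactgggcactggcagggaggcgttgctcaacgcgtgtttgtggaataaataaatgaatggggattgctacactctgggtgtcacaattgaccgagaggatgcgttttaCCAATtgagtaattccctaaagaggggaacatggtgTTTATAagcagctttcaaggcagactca
Got1, chr19:43524606-43524855, minus strand: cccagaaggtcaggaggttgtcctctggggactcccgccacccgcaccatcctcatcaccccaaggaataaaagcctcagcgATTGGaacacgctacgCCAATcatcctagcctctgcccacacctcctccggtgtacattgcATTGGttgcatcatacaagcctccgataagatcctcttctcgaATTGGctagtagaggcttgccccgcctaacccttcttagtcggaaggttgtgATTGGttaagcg
CCAAT was found in all 4 of these stretches, and 5 times in the one of Got1. Among other members lower in OHFD than in YND hepatocytes, the windows of Afmid, Acmsd and Haao held no CCAAT, while those of Tat and Cbs did. Across 38 windows of 36 members, 57.9% held CCAAT on either strand, against 33.8% of 32851 windows of all genes. TGACG was in 15.8% of member windows and 17.8% of all windows, and TATAAA in 13.2% and 12.4%. TGTTCT, the glucocorticoid receptor half-site, was in 5.26% of member windows and 16.1% of all windows, and the full cAMP response element TGACGTCA in 0 member windows and 1.55% of all windows. CAAAGTCCA, a form of the HNF4 site, was in 0 member windows and 0.384% of all windows. TGACG lies within TGACGTCA, and a match is a match of letters only.

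Levels were compared between members per kilobase of merged exon. In YND hepatocytes, Gnmt, which uses surplus S-adenosylmethionine to methylate glycine, was highest at a median of 1093 CPM per kilobase (range 1043 to 1318). Cdo1, which oxidises cysteine, followed at 946 (909 to 1039), with its highest mouse just under the lowest mouse for Gnmt. Hpd, the dioxygenase of tyrosine breakdown, came next at 725 (647 to 829), below every mouse for Cdo1. The bottom of the order was Sdsl, a relative of serine dehydratase, at 5.48 CPM per kilobase (4.21 to 8.40). Its range overlapped that of Acmsd, at 8.28 (4.21 to 9.64), an enzyme at the branch point of tryptophan breakdown. Gnmt was first, and Afmid, Acmsd and Sdsl were the last, in all 4 groups.

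**Figure D1:**
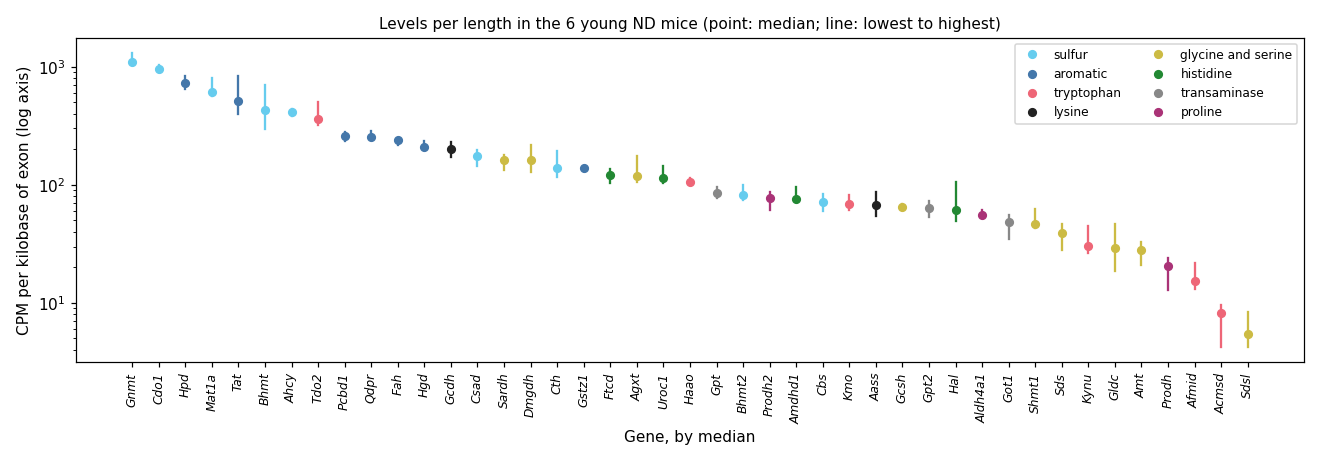
Levels of the 43 members in the 6 YND mice, in CPM per kilobase of merged exon on a log axis, with the median as a point, the lowest to highest mouse as a line, and colour for the branch of metabolism. Sulfur and aromatic genes fill the upper end, from Gnmt at 1093, and Sdsl at 5.48 is at the lower end.

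Together the members took a median of 2.39% of all counts in YND, 2.66% in YHFD, 2.08% in OND and 2.61% in OHFD. In young mice, HFD changed 1 of 43 members, which was lower, while 3.50% of all genes tested were called in that comparison and 1.59% were called lower. The young count was 13 with only the groups compared in the fit, 5 with no count filter and 4 with DESeq2. In old mice, HFD changed 4 members, 3 higher and 1 lower, against 3.01% of all genes, 1.37% higher and 1.64% lower. OND hepatocytes had 3 members lower and 0 higher than YND hepatocytes, where 8.50% of all genes were called and 1.24% of all genes were called lower. OHFD against YHFD called 1 member, which was lower, with 2.24% of all genes called and 0.420% called lower. OHFD against YND, which differ in diet as well as age and substrain, called 11 members, 2 higher and 9 lower. In that comparison 30.2% of all genes were called, 17.3% higher and 12.9% lower. In all, 13 members were called in at least 1 of these 5 comparisons.

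The log2 fold changes of the members, called and uncalled together, leaned one way by age. Of the 43 members, 39 lay below 0 in OND against YND, with a median of -0.25 beside 0.01 over all genes. Of 44 further enzymes of amino acid metabolism, 34 lay below 0 there (median -0.21), as did 6 of 9 hepatocyte markers (median -0.25). The lean was thus not particular to the members, while 14 amino acid transporters had a median of -0.05. For the members, the lean was the same with another scaling of the libraries (39 below 0, median -0.23), and smaller without OND replicate 4 (37 below 0, median -0.14). Without OND replicates 3 and 4 and OHFD replicates 4 and 6, the livers with the most signal from other cells, 31 were below 0 and the median was -0.09. Under HFD in old mice, 29 members lay above 0, with a median of 0.16 against -0.01 for all genes. That median was 0.06 without OND replicate 4, beside 0.04 for all genes in the same fit. It was 0.26 without OHFD replicate 4, beside 0.0002 for all genes. Without the livers with the most signal from other cells it was 0.17, beside -0.02. In young mice the members had a median of 0.05 under HFD, beside 0.01 for all genes. Over 36 alternative settings of the fit it ran from -0.02 to 0.10, so its sign was not settled.

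**Figure D2:**
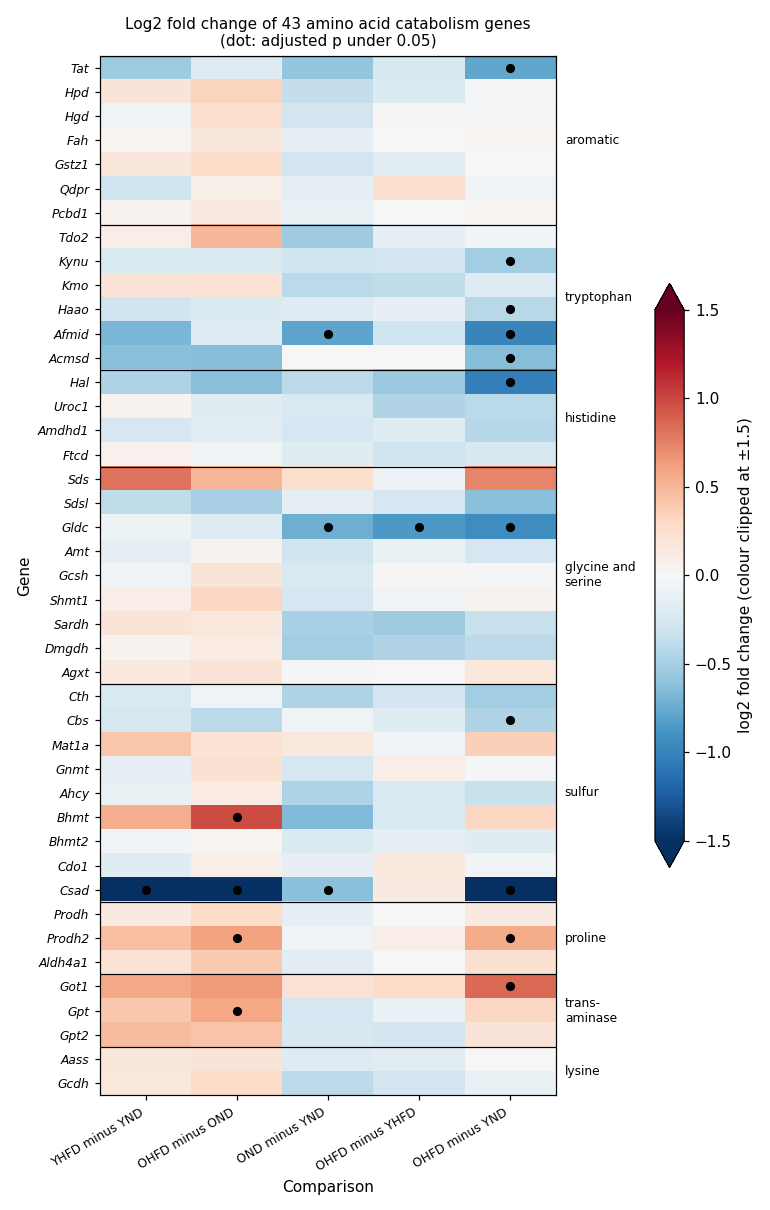
Log2 fold changes of the 43 members (rows, grouped by branch of metabolism) in the 5 pairwise comparisons (columns), with red for higher and blue for lower in the first-named group and dots at calls with an adjusted p under 0.05. Csad is the darkest row, and 9 of the 11 calls in OHFD against YND are blue.

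Csad, in the sulfur branch, had the largest differences of the set. It encodes cysteine sulfinic acid decarboxylase, which makes the taurine precursor hypotaurine, and lies at chr15:102176999-102204724 on the minus strand (GRCm38, GENCODE vM21). Its level was 548, 665 and 750 CPM (lowest, median and highest mouse) in YND and 84.2, 108 and 151 CPM in YHFD. In OND it was 267, 393 and 600 CPM, and in OHFD 88.2, 131 and 157 CPM. Every HFD mouse lay below every ND mouse, at both ages and in both batches.

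In young mice, HFD left Csad at 0.176 times its YND level, a log2 fold change of -2.50 (SE 0.21, adjusted p = 1.20e-07). Batch 1 gave -2.79 and batch 2 gave -2.25. Among old mice Csad fell by 1.74 on the log2 scale (SE 0.20, adjusted p = 5.64e-05), with -1.71 and -1.89 in the batches. Both calls held when any single mouse was left out. Between OHFD and YND it was -2.37 (SE 0.21, adjusted p = 1.77e-07).

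The age difference of Csad was smaller and less certain. OND lay below YND by 0.62 on the log2 scale (SE 0.20, adjusted p = 0.0493), and these groups overlapped. This call was lost in 17 of 24 fits that each left out 1 mouse, with adjusted p from 0.0501 to 0.138: those without OND replicate 2, 3, 4 or 5, YND replicate 2, 3, 4, 5 or 6, YHFD replicate 1, 2, 4 or 6, and OHFD replicate 1, 3, 5 or 6. The diet difference was smaller in old than in young mice by 0.76 on the log2 scale (SE 0.28, adjusted p = 0.531), which was not called.

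Csad shares 7.26% of its exon bases with the antisense gene Zfp740, and strand use in counting is not given in the sources used here. Zfp740 had 12.7 to 34.3 CPM across mice, well under Csad in every group. Its own log2 fold change was -0.50 in YHFD against YND (adjusted p = 0.0398) and -0.38 in OHFD against OND (adjusted p = 0.1005).

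**Figure D3:**
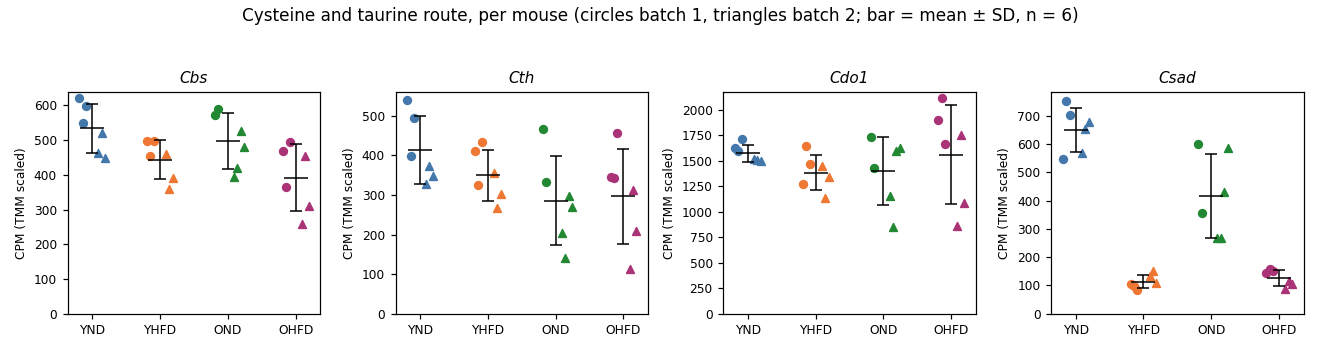
CPM of Cbs, Cth, Cdo1 and Csad, the enzymes from homocysteine to hypotaurine, in each of 24 mice, with circles for batch 1, triangles for batch 2, and the mean with SD (n = 6) as a bar. The HFD mice sit below every ND mouse for Csad, from 84.2 to 157 CPM against 267 to 750, while the groups overlap for the other genes.

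The steps that feed Csad had no call for diet with edgeR. Cbs joins homocysteine with serine, Cth releases cysteine, and Cdo1 oxidises it to the substrate of Csad. Cdo1 had log2 fold changes of -0.19 (SE 0.17) in young and 0.09 (SE 0.17) in old mice under HFD, and Cth -0.23 (SE 0.20) and -0.05 (SE 0.20), none of them called. Cbs was at -0.27 (SE 0.12, adjusted p = 0.208) in young and -0.40 (SE 0.12, adjusted p = 0.0692) in old mice, and DESeq2 called the old difference (adjusted p = 0.0105). With edgeR, Cbs was called only in OHFD against YND, among the 5 comparisons, with -0.45 (SE 0.12, adjusted p = 0.00917). Its levels were 448, 534 and 620 CPM in YND, 360, 457 and 497 CPM in YHFD, 394, 503 and 591 CPM in OND and 259, 409 and 495 CPM in OHFD. The YND and OHFD groups overlapped, with 3 OHFD mice below all YND mice, and the batches gave -0.44 and -0.48. No single left-out mouse ended this call. Cbs lies at chr17:31608894-31637238 on the minus strand.

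Bhmt, which uses betaine to turn homocysteine back into methionine, rose under HFD in old mice. It lies at chr13:93616675-93637961 on the minus strand. OND hepatocytes held 862, 1419 and 2614 CPM and OHFD 993, 3835 and 4771 CPM, with 4 OHFD mice above every OND mouse. The log2 fold change was 0.98 (SE 0.25, adjusted p = 0.0314), at 0.90 in batch 1 and 0.95 in batch 2. In young mice the levels were 1716, 2458 and 4017 CPM on ND and 2774, 3229 and 5284 CPM on HFD. That difference was 0.54 (SE 0.24, adjusted p = 0.198), and the diet difference was not called as different between the ages.

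The Bhmt call was lost without OND replicate 1, 2, 3 or 6 or OHFD replicate 5, with adjusted p from 0.0542 to 0.0794. The lowest mouse was OND replicate 4 in its group and OHFD replicate 4 in its own. Bhmt shares 3.25% of its exon bases with the antisense gene Gm15622, which reached 68.4 CPM in the highest mouse. The neighbouring paralog Bhmt2, which methylates homocysteine from S-methylmethionine, had 0.04 (SE 0.15) in old mice under HFD. Of the stretches of 50 bases in Bhmt transcripts, 10 (0.174%) also occur in Bhmt2.

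Of the 9 sulfur genes, the remaining members had no edgeR call in any of the 5 comparisons. Mat1a makes S-adenosylmethionine, and Ahcy splits the S-adenosylhomocysteine that methylation leaves. Ahcy was the one uncalled member whose OND and YND groups did not overlap, at -0.46 (SE 0.18, adjusted p = 0.127). Afmid was the other member without overlap there, and across all genes 3.80% did not overlap. Mat1a had 0.42 (SE 0.20, adjusted p = 0.216) in young mice under HFD.

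In the tryptophan branch, 4 of 6 genes were lower in OHFD than in YND hepatocytes and the branch median was -0.47, beside 12.9% called lower and a median of 0.04 over all genes. The 9 hepatocyte markers had a median of -0.43 in that comparison, with 7 below 0, 2 called lower and 2 called higher. The called tryptophan genes were Afmid, Kynu, Haao and Acmsd. Afmid, which hydrolyses N-formylkynurenine to kynurenine after the first step, had the largest difference. Tdo2, the enzyme of that first step, and Kmo were not called by edgeR in any of the 5 comparisons. Tdo2 was at -0.53 in OND against YND (SE 0.17, adjusted p = 0.0517) and at 0.49 in OHFD against OND (SE 0.17, adjusted p = 0.0982), and DESeq2 called both (adjusted p = 0.0191 and 0.0259).

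Afmid lies at chr11:117825924-117839908 on the plus strand. Its levels were 46.8, 54.0 and 76.7 CPM in YND, 29.5, 34.8 and 42.2 CPM in YHFD, 10.5, 37.2 and 42.9 CPM in OND and 14.8, 28.1 and 46.1 CPM in OHFD. YND stood above all mice of the other 3 groups. For OHFD and YND it was -0.99 (SE 0.24, adjusted p = 0.00449), a call that no single left-out mouse ended, with -0.94 and -1.06 in the batches. OND against YND gave -0.79 (SE 0.24, adjusted p = 0.0399), with -0.57 and -0.91 in the batches. YHFD against YND, though free of overlap, was not called at -0.68 (SE 0.24, adjusted p = 0.0987). Groups without overlap were found for 4.83% of all genes in that comparison and for 7.26% in OHFD against YND.

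The call of Afmid by age was lost without OND replicate 2, 3 or 4 or YND replicate 1, 2, 4, 5 or 6, with adjusted p from 0.0579 to 0.0851. Afmid shares 46.6% of its exon bases with the gene model Gm20708 and the antisense gene Tk1, so its counts are uncertain. Tk1 lay between 8.07 and 27.9 CPM and had -0.44 (adjusted p = 0.208) in OHFD against YND.

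Kynu cleaves kynurenine and 3-hydroxykynurenine, and Haao opens the ring of the product. Kynu (chr2:43555329-43682715, plus strand) had 162, 188 and 274 CPM in YND, 125, 174 and 227 in YHFD, 113, 145 and 213 in OND and 59.8, 145 and 244 in OHFD. Haao (chr17:83831156-83847963, minus strand) had 473, 494 and 533 CPM in YND, 337, 398 and 510 in YHFD, 299, 454 and 504 in OND and 232, 379 and 496 in OHFD. YND was the tightest group for Haao, and 5 OHFD mice lay below it, while 3 did so for Kynu.

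Against YND, OHFD Kynu was lower by -0.52 (SE 0.19, adjusted p = 0.0389) and Haao by -0.42 (SE 0.14, adjusted p = 0.0283). The batches gave -0.41 and -0.65 for Kynu and -0.31 and -0.55 for Haao. The Kynu call was lost in 11 fits, with adjusted p from 0.0516 to 0.114, those without OHFD replicate 1, 2, 4 or 6, YND replicate 1, 3, 4 or 5, YHFD replicate 1 or 5, or OND replicate 2. Haao lost its call without OHFD replicate 4 (0.0965), OHFD replicate 3 (0.0684) or YND replicate 4 (0.0554). OHFD replicate 4 was the lowest mouse for both genes.

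Acmsd turns the intermediate downstream of Haao away from nicotinamide nucleotide synthesis and lies at chr1:127729413-127767978 on the plus strand. Its medians were lower in both HFD groups than in both ND groups, with 11.9, 23.4 and 27.3 CPM in YND, 8.91, 13.02 and 19.9 in YHFD, 13.7, 18.3 and 30.6 in OND and 7.68, 12.5 and 20.5 in OHFD. All pairs of groups overlapped. The diet differences were -0.63 in young (SE 0.20, adjusted p = 0.0793) and -0.63 in old mice (SE 0.21, adjusted p = 0.0788), neither called by edgeR and both by DESeq2 (adjusted p = 0.0440 and 0.0410). A call was made for OHFD against YND, at -0.63 (SE 0.20, adjusted p = 0.0229), with -0.70 and -0.58 in the batches. That call was lost without YND replicate 4 (0.0817) or OHFD replicate 4 (0.0659).

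**Figure D4:**
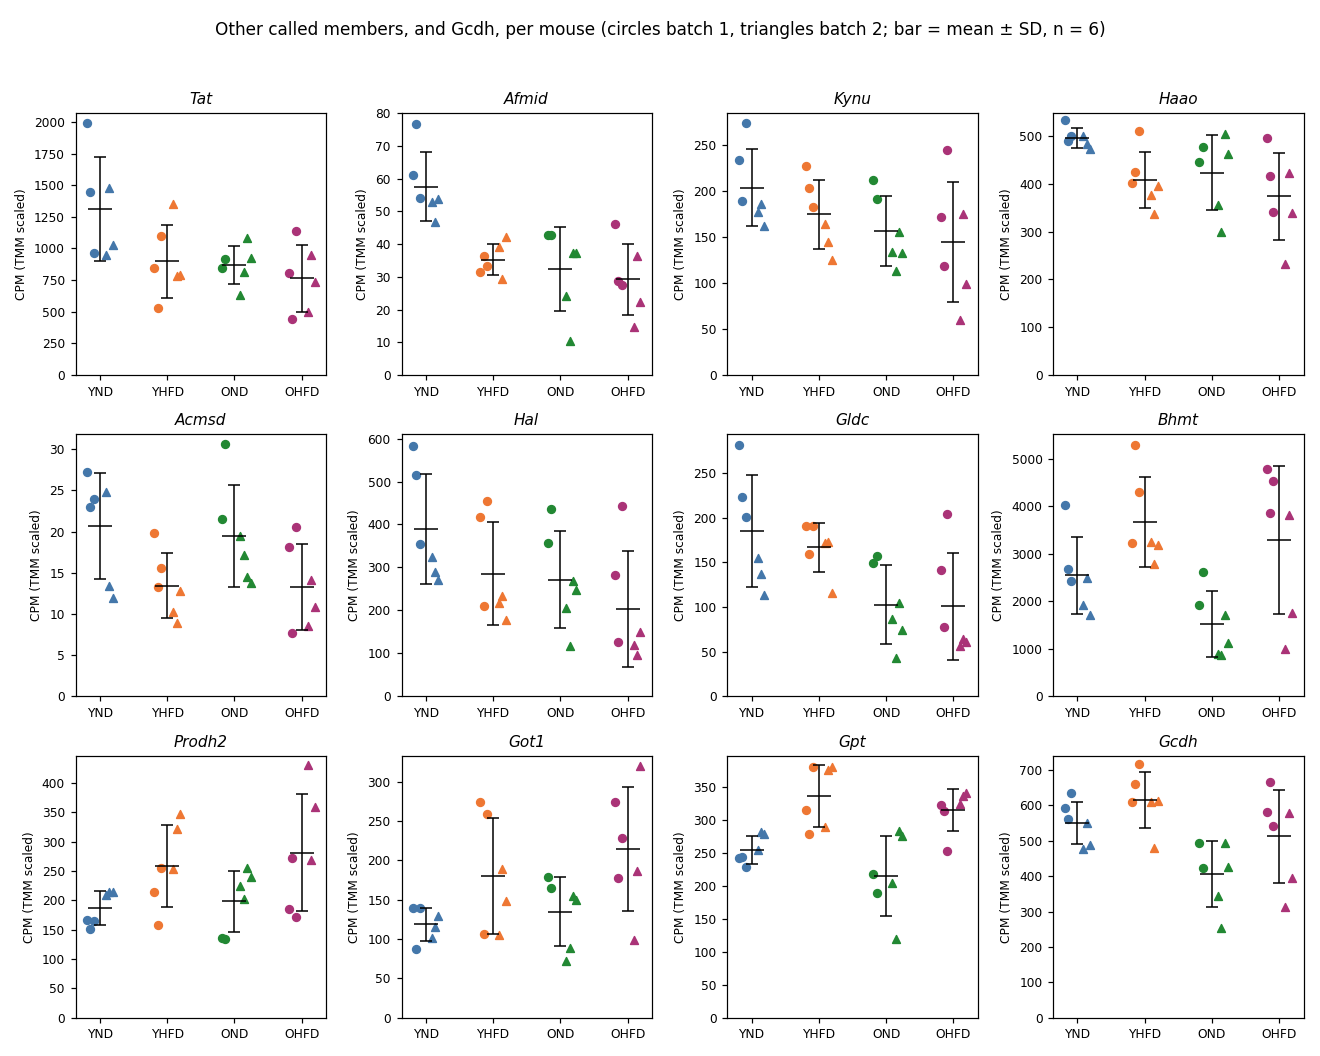
CPM of 11 called members other than Csad and Cbs, and of Gcdh, in each of 24 mice by group, with circles for batch 1, triangles for batch 2, and the mean with SD (n = 6) as a bar. Afmid stands highest in YND, Gpt is higher in most HFD mice, and Hal, Gldc and Kynu are mostly higher in batch 1 than in batch 2.

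Histidine breakdown begins with Hal, histidine ammonia-lyase, which was the 1 called gene of 4 in its branch, lower in OHFD than in YND hepatocytes, where 12.9% of all genes were called lower. Hal lies at chr10:93488768-93519304 on the plus strand, just downstream of the sequence shown. Its levels were 272, 340 and 584 CPM in YND, 177, 226 and 456 in YHFD, 117, 257 and 437 in OND and 97.0, 138 and 442 in OHFD. The lower mice were mostly those of batch 2, and 4 OHFD mice lay below all YND mice. Hal was at -1.02 in OHFD against YND (SE 0.24, adjusted p = 0.00404), that is 0.493 times the YND level, with -0.80 in batch 1 and -1.27 in batch 2. The call held without any single mouse.

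Neither diet nor age alone gave a call for Hal. HFD gave -0.46 (SE 0.24, adjusted p = 0.276) in young and -0.62 (SE 0.24, adjusted p = 0.138) in old mice, and age gave -0.40 (SE 0.24, adjusted p = 0.355) on ND and -0.56 (SE 0.24, adjusted p = 0.188) on HFD. The later genes of the route, Uroc1, Amdhd1 and Ftcd, had no call. All 4 genes of the branch lay below 0 in OHFD against YND, with a median of -0.42, beside -0.43 for 9 hepatocyte markers.

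Gldc, in the glycine and serine branch, was the member called in the most age comparisons. It encodes the decarboxylase of the glycine cleavage system, with Amt and Gcsh as partner proteins, and lies at chr19:30098447-30175429 on the minus strand. YND held 113, 178 and 281 CPM and YHFD 116, 172 and 191 CPM. OND held 43.4, 95.97 and 158 CPM and OHFD 56.1, 71.1 and 204 CPM. In each of the 3 comparisons below, 4 old mice lay under all mice of the young group.

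OND was below YND by -0.74 (SE 0.22, adjusted p = 0.0349), OHFD below YHFD by -0.86 (SE 0.22, adjusted p = 0.0414), and OHFD below YND by -0.93 (SE 0.22, adjusted p = 0.00356). Diet differences were not called, at -0.07 (SE 0.22) in young and -0.19 (SE 0.22) in old mice. Within batches the OHFD against YHFD value was -0.37 in batch 1 and -1.36 in batch 2. The OND against YND value was -0.60 and -0.81, and the OHFD against YND value -0.76 and -1.15.

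The OHFD against YND call of Gldc held without any single mouse. The OND call was lost without OND replicate 2, 3, 4 or 6 or YND replicate 1, 2, 4 or 5, with adjusted p from 0.0525 to 0.0991. The OHFD against YHFD call was lost in 14 fits, with adjusted p from 0.05004 to 0.109, those without any one YHFD mouse, OHFD replicate 2, 4 or 6, YND replicate 1, 2, 4 or 5, or OND replicate 2. Amt and Gcsh were not called in any of the 5 comparisons, nor was Shmt1, which interconverts serine and glycine.

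The calls of the 3 members that were lower in OND than in YND hepatocytes, Gldc, Afmid and Csad, were lost in 8, 8 and 17 of 24 fits that each left out 1 mouse. All 3 were lost without any one of OND replicates 2, 3 and 4 or of YND replicates 2, 4 and 5, with adjusted p-values of up to 0.0991 for Gldc, 0.0851 for Afmid and 0.138 for Csad. OND replicate 4, the mouse with the highest summed markers of other cells, was the lowest OND mouse for Gldc and Afmid, and the part of these cells in the calls was not tested. All 8 macrophage markers were called higher in OND than in YND, with a median log2 fold change of 3.51, where 8.50% of all genes were called. They were also called higher in OHFD than in YND, with 3.01, where 30.2% of all genes were called. In YHFD against YND all 8 lay above 0 as well, with a median of 2.22, and 1 was called. Their summed CPM had a median of 23.6 in YND, 109 in YHFD and 113 in OND, with 1217 in OND replicate 4.

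Sds and Sdsl, the serine dehydratase and its relative, varied most between mice in both HFD groups and were not called in any of the 5 comparisons. Sds had 47.1, 65.5 and 79.0 CPM in YND, 51.3, 101 and 245 in YHFD, 32.7, 82.9 and 95.0 in OND and 38.4, 101 and 222 in OHFD. Its diet difference was 0.82 in young mice (SE 0.36, adjusted p = 0.180). Sdsl was at 0.154 CPM in OHFD replicate 2, and its SD of log2 CPM in OHFD was 1.89, the highest of the members. The median SD of members was 0.19 in YND, 0.24 in YHFD, 0.41 in OND and 0.51 in OHFD, beside 0.24, 0.29, 0.34 and 0.54 over all genes.

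Among the aromatic genes, Tat was called once. It encodes tyrosine aminotransferase, the first step of tyrosine breakdown, and lies at chr8:109990437-109999803 on the plus strand. Levels were 950, 1235 and 1993 CPM in YND, 526, 817 and 1354 in YHFD, 633, 879 and 1083 in OND and 443, 771 and 1142 in OHFD. YND was highest by its median, and the groups overlapped. Tat was at -0.78 in OHFD against YND (SE 0.24, adjusted p = 0.0179), with -0.91 and -0.65 in the batches. The call was lost without YND replicate 1 (0.0577), the highest YND mouse, or OHFD replicate 4 (0.0538).

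The later steps of tyrosine breakdown, Hpd, Hgd, Gstz1 and Fah, had no call in any of the 5 comparisons. Nor had Qdpr and Pcbd1, which regenerate the cofactor of phenylalanine hydroxylase. All 7 aromatic genes lay below 0 in OND against YND, with a median of -0.28, and 6 lay above 0 in OHFD against OND, with a median of 0.17.

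In the proline branch and among the transaminases, 1 gene of 3 in each was called higher under HFD in old mice, Prodh2 and Gpt. In young mice edgeR called 0, and DESeq2 called both genes higher (adjusted p = 0.0225 and 0.0408). Over all genes, 1.37% were called higher in old mice, and the interaction called 0 genes, so a difference between the ages was not shown. Prodh2 oxidises hydroxyproline, and lies at chr7:30493622-30513402 on the plus strand. It had 150, 188 and 215 CPM in YND, 157, 255 and 347 in YHFD, 133, 213 and 254 in OND and 171, 271 and 431 in OHFD. In old mice it rose under HFD by 0.60 (SE 0.14, adjusted p = 0.0231), with 0.59 and 0.63 in the batches, and 4 OHFD mice exceeded all OND mice. Relative to YND, OHFD was at 0.55 (SE 0.14, adjusted p = 0.00579), at 0.35 in batch 1 and 0.74 in batch 2, and in young mice HFD gave 0.45 (SE 0.14, adjusted p = 0.0691).

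The old-mouse diet call of Prodh2 was lost without OND replicate 2 (0.0664) or replicate 1 (0.0633), which were the lowest OND mice and the only ones of that group in batch 1. Its call in OHFD against YND held without any single mouse. Prodh, the proline dehydrogenase, and Aldh4a1, which acts downstream of Prodh and Prodh2, were not called. Their values under HFD in old mice were 0.27 (SE 0.18) and 0.40 (SE 0.17, adjusted p = 0.177).

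Gpt and Gpt2 exchange amino groups between alanine and glutamate, and Got1 between aspartate and glutamate. Gpt (chr15:76695716-76699686, plus strand) had 228, 249 and 281 CPM in YND, 278, 345 and 380 in YHFD, 120, 211 and 283 in OND and 253, 323 and 340 in OHFD. In both ages 5 of 6 HFD mice lay above all ND mice. The difference was 0.57 in old mice (SE 0.15, adjusted p = 0.0345), with 0.50 and 0.61 in the batches, and 0.40 in young mice (SE 0.15, adjusted p = 0.115), which was not called. The call was lost without OND replicate 1, 2 or 3 or OHFD replicate 2 or 6, with adjusted p from 0.0534 to 0.0843. Gpt2 had 0.47 (SE 0.19, adjusted p = 0.147) in young and 0.43 (SE 0.19, adjusted p = 0.193) in old mice.

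Got1 (chr19:43499752-43524605, minus strand) had 87.7, 122 and 140 CPM in YND, 105, 169 and 274 in YHFD, 72.3, 152 and 179 in OND and 98.5, 208 and 321 in OHFD. It was higher in OHFD than in YND by 0.85 (SE 0.26, adjusted p = 0.0169), with 0.87 and 0.81 in the batches, and 5 OHFD mice lay above all YND mice. The call was lost without OHFD replicate 6 (0.0712), the highest mouse. HFD alone gave 0.58 (SE 0.26, adjusted p = 0.192) in young and 0.64 (SE 0.26, adjusted p = 0.152) in old mice. All 3 transaminases lay above 0 in both diet comparisons, with medians of 0.47 and 0.57.

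Lysine breakdown was represented by Aass, the first enzyme, and Gcdh, which handles glutaryl-CoA, and neither was called. Gcdh (chr8:84886393-84893921, minus strand) had 475, 555 and 633 CPM in YND, 480, 611 and 716 in YHFD, 255, 424 and 494 in OND and 313, 559 and 667 in OHFD. Its largest difference was -0.39 (SE 0.15, adjusted p = 0.109) in OND against YND.

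Whether the diet difference depended on age was tested by an interaction term in the same model. edgeR's quasi-likelihood test called 0 of 43 members and 0 of all genes, or 0.00%. At an unadjusted p under 0.05 that test gave 1 member, Csad, while 9.18% of all genes passed that limit. DESeq2 called 0 members and 4 genes in all, and limma on the FPKM values called 0 members.

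Other genes around these routes were counted in the same way. Among 44 tested of 49 further enzymes of amino acid metabolism, 2 were higher and 3 lower under HFD in young mice, and 1 was higher and 1 lower in old mice. The shares of all genes called in these comparisons were 3.50% and 3.01%. Agxt2, a mitochondrial aminotransferase of alanine and glyoxylate, was higher in old mice by 0.71 (SE 0.12, adjusted p = 0.00286). The 2 genes higher in young mice were Agxt2, by 0.48 (SE 0.12, adjusted p = 0.0251), and Glul, the glutamine synthetase, by 1.14 (SE 0.28, adjusted p = 0.0267), and both were named for that comparison after their values were seen. Kyat1, a kynurenine aminotransferase, was lower in both, by -0.66 (SE 0.15, adjusted p = 0.0196) and -0.62 (SE 0.15, adjusted p = 0.0278). Ethe1, a dioxygenase of mitochondrial sulfide breakdown, was lower in young mice at -0.81 (SE 0.18, adjusted p = 0.0169), as was Asns, which makes asparagine, at -2.48 (SE 0.57, adjusted p = 0.0195).

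Of 14 amino acid transporters, 1 rose and 1 fell under HFD in young mice, where 3.50% of all genes were called and 1.59% were called lower. In old mice 1 fell, where 3.01% of all genes were called and 1.64% were called lower. The gene that fell at both ages was Slc6a6, the taurine transporter. It had 98.6, 127 and 135 CPM in YND, 65.1, 77.0 and 85.3 in YHFD, 107, 114 and 127 in OND and 38.4, 80.3 and 93.5 in OHFD, with no HFD mouse above an ND mouse. The log2 fold changes were -0.69 (SE 0.15, adjusted p = 0.0131) and -0.63 (SE 0.15, adjusted p = 0.0251). Csad was called lower in both of these comparisons as well, with larger differences, and Slc6a6 was not called in OND against YND. Slc1a2, a glutamate transporter of hepatocytes near the central vein, was the transporter that rose in young mice, by 1.11 (SE 0.25, adjusted p = 0.0177).

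Of 19 regulators of these routes, 2 fell under HFD in young mice, where 1.59% of all genes were called lower. They were the insulin-responsive genes Igfbp1 at -1.95 (SE 0.47, adjusted p = 0.0246) and Irs2 at -1.06 (SE 0.26, adjusted p = 0.0251). In old mice 1 rose, beside 1.37% of all genes called higher, the glucocorticoid-induced gene Tsc22d3, at 1.15 (SE 0.25, adjusted p = 0.0159). Age on ND changed 3 of the further enzymes, all lower, beside 1.24% of all genes called lower. They were Hao1, the glycolate oxidase, at -0.68 (SE 0.14, adjusted p = 0.00462), Aadat, an aminotransferase of aminoadipate and kynurenine, at -0.69 (SE 0.21, adjusted p = 0.0402), and Ido2, a relative of the tryptophan-opening dioxygenases, at -0.44 (SE 0.14, adjusted p = 0.0453). Of the transporters, 1 was higher where 8.50% of all genes were called in either direction, Slc1a2, at 0.82 (SE 0.25, adjusted p = 0.0409). Of the regulators, 1 was lower, G6pc, the last enzyme of glucose release, at -1.01 (SE 0.29, adjusted p = 0.0311).

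In OHFD against YND, 15 of 44 further enzymes were called, 5 higher and 10 lower, with 5 of 14 transporters and 5 of 19 regulators, beside 30.2% of all genes. The enzymes with the smallest adjusted p were Agxt2 at 0.65 (SE 0.12), Kyat1 at -0.84 (SE 0.15) and Glul at 1.56 (SE 0.29, adjusted p = 0.000732). The transporters were Slc1a2 at 1.47 (SE 0.25), Slc6a6 at -0.74 (SE 0.15) and Slc43a1, a carrier of large neutral amino acids, at 1.09 (SE 0.26, adjusted p = 0.00404). The regulators were the hepatocyte transcription factor Hnf4a at -0.73 (SE 0.18, adjusted p = 0.00534), Irs2 at -0.97 (SE 0.26) and the transcription factor Cebpb at 0.81 (SE 0.25, adjusted p = 0.0169). All 8 macrophage markers were called higher in this comparison too, and their part in these values was not tested.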

How the data were processed

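RNA from isolated hepatocytes of 24 mice was sequenced. Per the labels' processing notes and the study's methods, the authors checked reads with FastQC 0.11.8, aligned them to mm10 with STAR 2.7.3a and counted them per gene with HTSeq 0.11.2. The deposited counts are whole reads per gene with no normalization. A second deposited table holds FPKM values (fragments per kilobase and sequencing depth) that the authors adjusted for batch with ComBat, and it served here for 2 alternative tests. The study's methods name GENCODE vM23 for the alignment. Strand use in counting is not given in the sources used here. No column was without a sample (0). The 43 members, the lists and the tests were chosen with earlier results of these data known.

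Counts were filtered by group with filterByExpr, scaled by TMM and fitted in edgeR 4.0.16 (R 4.3.3) as group plus batch over all 24 mice. Calls used the quasi-likelihood F test, with p-values adjusted by Benjamini-Hochberg over 13583 genes in each comparison, and a threshold of 0.05. The SE is the size of the log2 fold change divided by the square root of F. Log2 CPM used a prior count of 2. The fit was tested on simulated data with known changes. Values by mouse are given for members called in any comparison, and for the member with the largest change in a branch with no call. Further listed genes are named where they passed and ranked among the 3 smallest adjusted p-values of their list, and Agxt2 and Glul in young mice after their values were seen. The lowest chi-square per degree of freedom between mice of a group was 14.5, so no library was a copy of another. Nothing in the labels besides separate titles shows that replicates are separate animals, and p-values measure the spread between these samples. Counting error is small beside that spread at totals of 9200332 to 22185069, except for genes at a few CPM.

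Alternatives were size factors by relative log expression (RLE), no count filter, DESeq2 1.42.0, no batch term, the replicate number as a block, the compared groups only, each batch alone, limma 3.58.1 on log2(FPKM + 1) or log2(FPKM + 0.1), and each mouse left out. Positions and exon sharing come from GENCODE vM21, an earlier release on the same genome, and upstream sequences from RefSeq on GRCm38.p6, which matched 36 of 43 members. The hepatocyte marker Tf was not analysed here.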

Additional observations from a re-analysis of the deposited data

Results flagged for a closer look

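Each group of 6 mice was checked for a mouse that stood apart, for each of the 14 members described by mouse, which made 56 groups of values. Chance alone would flag about 1 in 20 such groups, and 2 were found. Gldc in YHFD replicate 6 had a log2 CPM of 6.86 (116 CPM), the lowest of its group, with a gap to the next mouse of 0.638 of the group's range. Gpt in OHFD replicate 3 had a log2 CPM of 7.99 (253 CPM), with a gap of 0.729 of the range. Leaving out YHFD replicate 6 took the adjusted p of Gldc in OHFD against YHFD to 0.0670, and the cause was not tested.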

How the results depend on the processing

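Of the 20 calls of a member in a comparison, each kept its direction under every alternative run. The calls still past the threshold numbered 19 with RLE, 20 with no count filter, 20 with DESeq2, 8 with no batch term, 10 with the compared groups only, 4 in batch 1, 6 in batch 2, 15 with limma on log2(FPKM + 1) and 18 on log2(FPKM + 0.1). The numbers of members called by edgeR, in the order YHFD against YND, OHFD against OND, OND against YND, OHFD against YHFD and OHFD against YND, were 1, 4, 3, 1 and 11. Where they moved past 1.5 times, they were 5, 7, 6 and 3 for the first 4 comparisons with no count filter and 4, 7, 5 and 2 with DESeq2. The calls that DESeq2 added were Acmsd, Prodh2 and Gpt in YHFD against YND, Acmsd, Tdo2 and Cbs in OHFD against OND, Tdo2 and Sardh in OND against YND, Sardh in OHFD against YHFD, and Cth and Gpt in OHFD against YND. With no batch term, the last 4 comparisons gave 1, 0, 0 and 6. With the compared groups only, YHFD against YND gave 13, OHFD against OND 1, and OHFD against YHFD 0. Batch 1 alone gave 1, 0, 0 and 3 for the last 4 comparisons, and batch 2 alone gave 1, 0, 0 and 4. Limma gave 0 and 1 for OND against YND at the pseudocounts of 1 and 0.1. Leaving out 1 mouse at a time gave 1 to 4, 1 to 5, 0 to 7, 0 to 3 and 8 to 14, and 0 to 0 for the interaction.

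A block by replicate number, used instead of the batch, kept 18 of 20 calls and lost Gldc in OHFD against YHFD (adjusted p = 0.0724) and Prodh2 in OHFD against OND (0.0890). It gave 5 members for OND against YND and 0 for OHFD against YHFD. The numbers name different mice, and the correlation of same-numbered deviations averaged from 0.143 to 0.279 over the comparisons. Of 6 samples, 1 to 4 correlated best with their own number. Same-numbered mice mostly share a batch, so these values cannot decide whether mice were paired, and the titles name no pairing.

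The following settings were chosen after seeing the data. Without OND replicate 4 and OHFD replicate 2, 14 of the 20 calls remained, and the comparisons gave 6 members for YHFD against YND and 0 for OND against YND. Without OND replicates 3 and 4 and OHFD replicates 4 and 6, 9 calls remained, with 6, 0 and 0 for YHFD against YND, OND against YND and OHFD against YHFD. The cause of these shifts was not tested.

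Members at low levels, such as Sdsl at 0.154 CPM in 1 mouse, rest on few counts.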
